A study of Mus musculus with 6 samples.

Results

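MS-275-only gained promoter peaks were the ATAC-seq sites upstream of protein-coding genes at which the MS-275 group had more signal than vehicle and no peak of the other gained comparisons lay. There were 1572 such peaks among the 8480 peaks of MS-275 over vehicle and the 11800 peaks of all 6 lists. They were chosen by measured values: each was called for MS-275 over vehicle, shared no base with a peak called for CXD101 over vehicle or for MS-275 over CXD101 (the direct list), and overlapped the 5 kb upstream of a transcription start site (TSS) of a protein-coding gene. In all, 1998 peaks gained with MS-275 lay at protein-coding promoters, so the MS-275-only ones made up 78.7% of them (95% Wilson interval 76.8 to 80.4, which covers counting error only, as do all intervals on shares here). The other 426 were removed, 74 through the CXD101 list, 373 through the direct list and 21 of these through both. The CXD101 list held only 284 peaks and the direct list 1650. The share of 78.7% therefore depends on the sizes of these lists and does not measure how particular the gain was to MS-275. For each inhibitor against vehicle, the paper reports more peaks than the lists used here hold, also at promoters. The reason for this difference was not settled, so the list sizes are not the paper's counts. The 1572 peaks are single summits that lay in 1349 separate intervals, of which 203 held several member summits.

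Monocytic myeloid-derived suppressor cells (M-MDSCs) were isolated by sorting CD11b+Ly-6ChiLy-6G- cells from Hepa 1-6 tumors, a hepatoma line grown in the livers of young adult female C57BL/6J mice. The 3 groups of wild-type mice received vehicle, MS-275 or CXD101 by daily intraperitoneal injection, both inhibitors at the same dose, and had 2 libraries each. Only mice with a high share of MDSCs in blood were treated, so each group stands for such animals. Both libraries of a group were pooled before peaks were called, so every value below belongs to a pool, has no error between replicates and was not tested between groups. The MS-275 and CXD101 pools were each 1.14 times as deep as the vehicle pool, and the MS-275 pool was 1.01 times as deep as the CXD101 pool. The lists hold sites that differ between groups, so the levels of M-MDSC markers could not be read from them.

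Histone deacetylases (HDACs) take acetyl groups off histone tails. The class I enzymes HDAC1, HDAC2 and HDAC3 do so as the catalytic part of corepressor complexes such as NuRD, CoREST and NCoR/SMRT. MS-275 and CXD101 both inhibit HDAC1, HDAC2 and HDAC3, and acetylated chromatin is in general more open to the transposase that ATAC-seq uses. A promoter is the stretch at and before the TSS where the transcription machinery assembles. Many promoters lie in CpG islands, which are rich in C and G and in CG dinucleotides and are open in most cells, whereas CpG-poor promoters are more often active in few cell types. M-MDSCs are immature monocyte-like cells that restrain T cells in tumors.

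Sequences of 8 summits are given because they show the range of these promoters and the motif matches described further on. All were read from the plus strand of the mm10 assembly, 5′ to 3′, centered on the summit, and none overlapped an annotated exon. Capitals mark CG dinucleotides in the first pair, which are the 2 peaks with the highest −log10 p-value, and the named motif in the others. The window at Ran, which encodes a nuclear transport GTPase, is an example of a CpG-rich one with 31 CG dinucleotides, whereas the Nr3c2 window had 0.
Psma6 (chr12:55396918-55397068): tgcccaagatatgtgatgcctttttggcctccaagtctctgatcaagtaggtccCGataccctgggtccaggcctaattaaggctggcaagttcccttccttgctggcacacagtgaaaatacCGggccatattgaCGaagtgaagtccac
B3gnt2 (chr11:22864917-22865067): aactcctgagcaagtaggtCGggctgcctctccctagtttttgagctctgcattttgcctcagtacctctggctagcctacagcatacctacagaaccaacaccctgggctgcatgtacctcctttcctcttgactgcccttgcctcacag
Ran, NRF1 match (chr5:129019784-129019984): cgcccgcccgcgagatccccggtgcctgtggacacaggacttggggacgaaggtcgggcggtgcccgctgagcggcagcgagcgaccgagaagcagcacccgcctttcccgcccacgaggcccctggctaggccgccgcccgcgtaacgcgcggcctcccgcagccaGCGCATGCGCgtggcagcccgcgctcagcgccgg
Nr3c2, IRF match (chr8:76897275-76897475): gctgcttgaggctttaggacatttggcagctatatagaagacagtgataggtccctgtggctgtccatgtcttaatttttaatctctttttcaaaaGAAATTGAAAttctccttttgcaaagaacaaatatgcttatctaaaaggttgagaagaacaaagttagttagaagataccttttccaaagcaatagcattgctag
Mpo, PU.1 match (chr11:87793379-87793579): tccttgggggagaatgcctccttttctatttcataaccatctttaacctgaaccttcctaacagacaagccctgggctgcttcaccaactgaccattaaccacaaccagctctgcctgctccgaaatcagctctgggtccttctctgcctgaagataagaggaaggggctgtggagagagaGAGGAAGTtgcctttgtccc
Cxcr4, PU.1 match (chr1:128597200-128597400): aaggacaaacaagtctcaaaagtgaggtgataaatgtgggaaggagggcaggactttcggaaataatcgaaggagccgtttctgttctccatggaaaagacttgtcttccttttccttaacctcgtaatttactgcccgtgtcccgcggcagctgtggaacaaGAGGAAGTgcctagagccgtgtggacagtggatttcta
Trim6, AP-1 match (chr7:104217833-104218033): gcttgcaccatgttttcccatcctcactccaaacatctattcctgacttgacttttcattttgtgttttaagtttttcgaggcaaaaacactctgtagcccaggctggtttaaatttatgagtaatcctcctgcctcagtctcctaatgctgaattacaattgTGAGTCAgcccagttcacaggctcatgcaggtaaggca
Adgrg1, AP-1 match (chr8:94984079-94984279): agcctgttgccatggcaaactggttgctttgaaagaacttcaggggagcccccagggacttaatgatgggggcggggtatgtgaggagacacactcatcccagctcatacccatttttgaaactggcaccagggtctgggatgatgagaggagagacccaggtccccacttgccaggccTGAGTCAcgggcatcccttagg

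In most members the vehicle level used by the caller was at least 2 times the genome background, its lowest value. The median fold enrichment, the caller's ratio of MS-275 to vehicle pileup with a pseudocount of 1 on both, was 2.65 (interquartile range 2.23 to 3.22, from 1.41 to 5.77). At the median member 59 MS-275 tags covered the summit, which is 51.6 at vehicle depth, over a vehicle level of 18 tags. Tags are aligned reads extended by the caller, and as vehicle level the caller takes the largest of the averages around the summit. The fold was at least 2 in 87.7% of members, at least 3 in 33.7%, at least 4 in 7.57% and at least 5 in 11 peaks. These values chose the members and are given as a description. The vehicle level was at its lowest value, the genome background of 5.84 tags, in 22 members (1.40%), and at least 2 times that in 77.2%. Since no level lay below that background, these shares do not measure how open a site was in vehicle. MS-275-only peaks away from promoters (5157) had a median fold of 2.93, at 46.3 tags over 14.4. The 426 promoter peaks removed by the other lists had a median fold of 2.84, at 57.7 tags over 18.6, and were longer, with a median length of 454.5 bp beside 255 bp for the members.

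**Figure D1:**
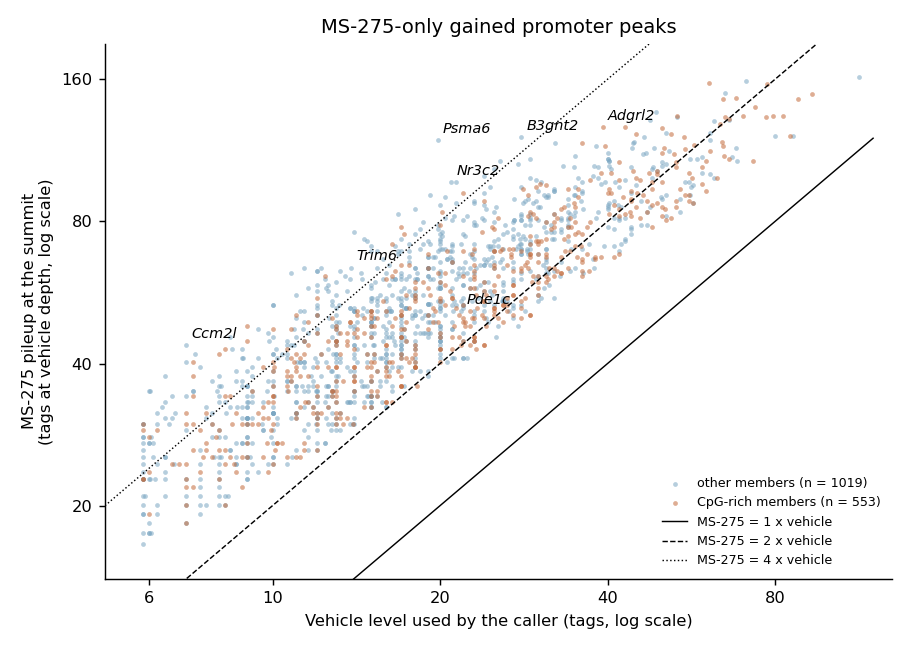
MS-275 pileup at the summit against the vehicle level (both in tags at vehicle depth, log scales) for the 1572 member peaks, 1 point each, colored by whether the window was CpG-rich, with lines at 1, 2 and 4 times the vehicle level. All points lie above the line for 1 time the vehicle level and most lie under the line for 4 times, Psma6 stands above the cloud, and CpG-rich members lie further to the right, with a median vehicle level of 20 tags.

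Psma6, which encodes an alpha subunit of the proteasome core, had the highest −log10 p-value. Its summit, in a peak at chr12:55396550-55397137 and 1782 bp upstream of an annotated Psma6 TSS within an intron, had 136 MS-275 tags (exact 95% Poisson interval 114 to 161), or 119 at vehicle depth, over a vehicle level of 19.8. The enrichment was 5.77-fold, the highest of all members, and the −log10 p-value was 51.0. B3gnt2, an enzyme that extends N-acetyllactosamine chains on glycoproteins, followed at chr11:22864574-22865145 with 138 tags (116 to 163) and a fold of 4.20 over 28 tags. Nr3c2, the mineralocorticoid receptor, had a peak 2067 bp upstream of its TSS (chr8:76897275-76897508) with 111 tags and a fold of 4.47. Of the 10 members with the highest −log10 p-values, 8 had their summit 773 bp or more from the nearest annotated TSS of the gene. The TSS of any transcript counted, so some of these summits, as at Psma6 and Nup210, lay inside the gene. The promoter-proximal ones were at Cers4, a ceramide synthase, 28 bp downstream, and at Ndrg2, 45 bp upstream. The others were at Mpp7, a membrane scaffold protein, Jade1, a subunit of a histone acetyltransferase complex, BC049762, Igll1, part of the surrogate light chain of the pre-B cell receptor, and Nup210, a nuclear pore protein, with folds of 4.08, 4.38, 4.55, 4.01 and 5.14.

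Weaker sites could have a high ratio as well. The peak at Ccm2l had 43.7 MS-275 tags at vehicle depth over a vehicle level of 7.0, a fold of 5.59. Cd63, a tetraspanin of late endosomes and exosomes, had a fold of 5.35 at 862 bp upstream, and the metalloproteases Adam19 and Adamts6 had folds of 5.23 and 5.20. Olfr742, an olfactory receptor, and Sh3glb1, an endophilin, had folds of 5.22 and 5.15. At the other end, the members just inside the threshold were at Ust and Pde1c, each with 50 tags, 43.7 at vehicle depth over 24, 1.79-fold enriched, with a −log10 p-value of 3.80, and a second summit near Hoxa9 with 24 tags and a −log10 p-value of 3.81. The MS-275 list ended at 3.79. The smallest overlaps that removed a promoter peak were 188 bases with the CXD101 list and 18 bases with the direct list, while the smallest gap between a member and a peak of these lists was 149 and 114 bases.

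Absence from the CXD101 list does not measure the CXD101 signal, and the lists allow only limits on it. The CXD101 list ended at a −log10 p-value of 4.50, and 107 members (6.81%, interval 5.66 to 8.16) had a lower value for MS-275. At the vehicle level of each member, a CXD101 summit would have needed a median of 37.8 tags at vehicle depth to reach that limit, a fold of 2.04 (from 1.40 to 2.85). At 133 members (8.46%) the MS-275 pileup itself would not have reached it. In the other direction, by summit height alone, the direct list would have held the summit at a CXD101 level under a median of 30.8 tags. This limit lay above the vehicle level at all 1572 members. Their choice for MS-275 over vehicle nearly fixes that order, so it gives no measure of the CXD101 signal. At 296 members (18.8%, interval 17.0 to 20.8) no CXD101 level at the summit satisfied both limits, and these included all 103 members with a −log10 p-value over 20, Psma6 among them. The height of the summit alone therefore did not settle the membership of these 296, and the minimum width of a peak and the reads around the summit, which the caller also uses, could not be recomputed. Within 500 bp of a member there was a CXD101 gained peak at 18 members, a direct peak at 45 and either at 60. No member overlapped a peak lost with MS-275 or with CXD101 (0 of 1572 in each, where 3 counts would make a share of 0.191%). The choice of members for MS-275 over vehicle nearly fixes the first count in advance. The CXD101 lost list shares the vehicle libraries with that choice, so neither count is a result about the members.

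**Figure D2:**
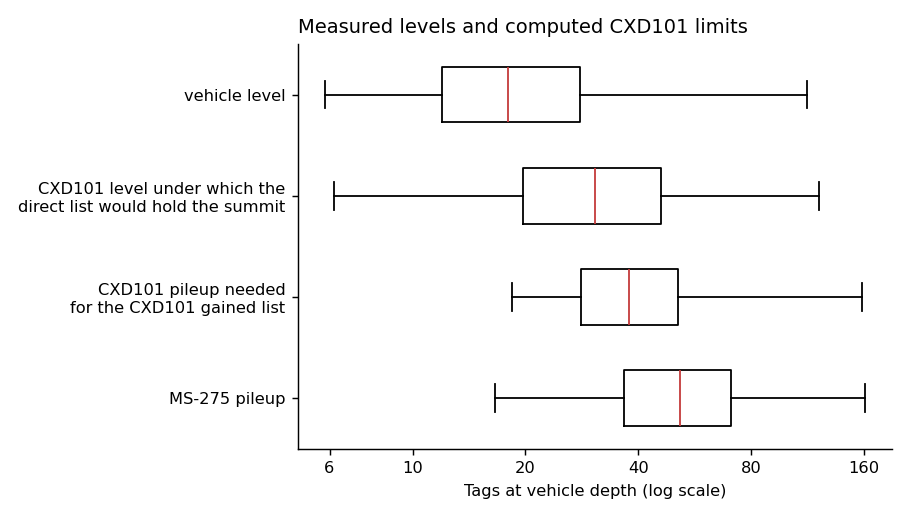
Vehicle level, the CXD101 level under which the direct list would hold the summit, the CXD101 pileup needed for the CXD101 gained list, and the MS-275 pileup, in tags at vehicle depth (log scale), over the 1572 members. Boxes span the quartiles with the median in red and whiskers reach the lowest and highest member; the medians are 18, 30.8, 37.8 and 51.6.

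Members gathered close to the TSS, although the rule asked only for some overlap with 5 kb. The summit was within 1 kb of the nearest protein-coding TSS in 66.7% (interval 64.4 to 69.0), within 500 bp in 55.7%, and at a median distance of 366.5 bp. The promoter peaks also in the CXD101 or direct list were within 1 kb in 58.9% (54.2 to 63.5), and the 128 lost with MS-275 (called for vehicle over MS-275) in 47.7% (39.2 to 56.3). Of the member summits, 30.8% lay at the TSS or up to 500 bp upstream, 24.9% up to 500 bp downstream, and 29.0% more than 1 kb and up to 5 kb upstream. By the annotation of protein-coding genes, 25.8% of summits were in an exon, 38.7% in an intron and 35.6% outside a gene. Of the members, 13.9% also lay upstream of the TSS of a noncoding gene or pseudogene, and 42 lay upstream of protein-coding genes on both strands, so the gene that a peak belongs to is not always certain. Promoters took a like share of the MS-275-only peaks, 23.4% (22.4 to 24.4), and of the other peaks gained with MS-275, 24.3% (22.4 to 26.4).

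**Figure D3:**
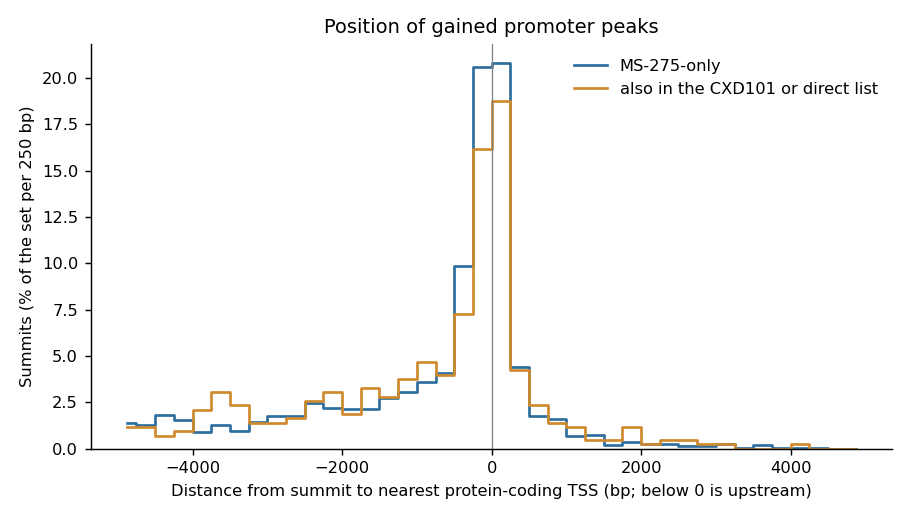
Distance from the summit to the nearest protein-coding TSS (bp, below 0 is upstream), as the percent of each set in bins of 250 bp, for the members and for gained promoter peaks also in the CXD101 or direct list. Both lines peak at the TSS, and the members are the higher there.

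CpG-rich windows were common among members next to the TSS and rare away from it. A window of 250 bp either side of the summit was called CpG-rich when its GC content was at least 50% and its ratio of observed to expected CG dinucleotides at least 0.6. This held for 553 of the 1572 members, or 35.2% (32.9 to 37.6). It held for 63.0% (57.9 to 67.9) of the 349 members within 100 bp of a TSS, 45.7% of those between 250 and 500 bp, and 4.97% (3.41 to 7.18) of those beyond 1 kb. Windows placed at the TSS of every protein-coding gene were CpG-rich in 48.0%. The promoter peaks shared with the other lists were CpG-rich in 30.5% (26.3 to 35.0), and in 47.4% (41.3 to 53.6) when within 1 kb, beside 50.2% (47.2 to 53.3) for members within 1 kb. The promoter peaks lost with MS-275 were CpG-rich in 13.3% (8.46 to 20.2), and in 27.9% (18.2 to 40.2) when within 1 kb, and the intervals of the lost peaks lay below those of the members in both cases. The CpG-rich members had a median fold of 2.45 over a vehicle level of 20 tags, and the other 1019 members 2.76 over 17, so the median ratio was the lower in the CpG-rich set. These are descriptions of pooled signals, and the depth of a site and its base composition were not separated.

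**Figure D4:**
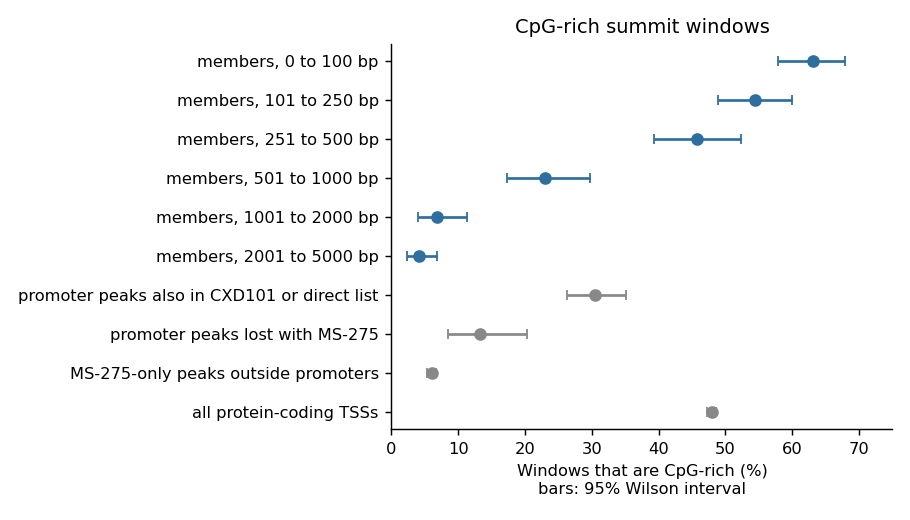
Percent of summit windows that were CpG-rich, with 95% Wilson intervals, for members by the distance of the summit from the nearest protein-coding TSS (blue) and for the other sets (grey). The share falls from 63.0% within 100 bp to 4.06% beyond 2 kb.

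Several motifs of active promoters were matched in a lower share of members than of windows at all protein-coding TSSs, a difference that was described and not tested. Each motif was searched on both strands within 100 bp of the summit. ETS (CCGGAAGT) was found in 0.381% (0.148 to 0.976) of the members within 1 kb of a TSS, beside 4.39% of windows at all protein-coding TSSs. CRE (TGACGTCA), the site of CREB factors, was found in 0.477% beside 2.03%, NRF1, a factor of housekeeping promoters, in 0.477% beside 2.64%, and the CCAAT box (GATTGG) in 6.10% (4.81 to 7.72) beside 12.9%. YY1 was in 0 of 1049 members within 1 kb, where 3 counts would make a share of 0.286%, beside 1.06%. In the promoter peaks within 1 kb shared with the other lists, ETS, NRF1 and YY1 were each in 0 of 251 (Wilson interval up to 1.51%). CRE was in 0.398% of that set and the CCAAT box in 7.97%, so low shares were not particular to the members. Its intervals for CRE (up to 2.22%) and YY1 reach the shares at all TSSs. Many of these motif sites sit at a fixed place just before the TSS and the member windows do not, so the closest members are the fairer set. In the 349 members within 100 bp of a TSS, the GC box (GGGCGG) of SP factors was in 43.6% (38.4 to 48.8) beside 40.3%, while ETS was in 0.860% (0.293 to 2.50), NRF1 in 0.573% (0.157 to 2.07) and the CCAAT box in 5.44% (3.51 to 8.35), with intervals below the shares at all TSSs. In the same set CRE was in 0.573% (0.157 to 2.07) and YY1 in 0 of 349 (Wilson interval up to 1.09%), and those intervals reach the shares at all TSSs.

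AP-1 (TGACTCA or TGAGTCA), the site of FOS and JUN factors, was in 24 members or 1.53% (1.03 to 2.26), among them Trim6 and Adgrg1, whose sequences are printed with the match in capitals. The share was 3.20% (2.75 to 3.72) in MS-275-only peaks away from promoters and 17.97% (12.3 to 25.5) in the promoter peaks lost with MS-275. In the promoter peaks shared with the other lists AP-1 was in 1.64% (0.798 to 3.35), so the low share was not particular to the members. The IRF motif, the site of interferon regulatory factors, was in 37 members, 2.35% (1.71 to 3.23). It was in 0.704% (0.240 to 2.05) of the promoter peaks shared with the other lists, and those intervals overlap. The IRF motif was in 3.04% (2.61 to 3.55) of the MS-275-only peaks away from promoters and in 1.93% of windows at all TSSs. PU.1 (GAGGAAGT), the site of a factor that directs myeloid development, was in 26 members, 1.65% (1.13 to 2.41), including Mpo, Cxcr4, Ifi47 and Gbp5, beside 2.30% at all TSSs. The E-box (CACGTG) was in 3.56% (2.75 to 4.60), beside 5.72% at all TSSs, and C/EBP (TTGCGCAA or TTGCGTAA), CTCF and the REST left and right parts were in 2, 1, 2 and 1 members, beside 0.262%, 0.386%, 0.294% and 0.188% of windows at all TSSs. In the 349 members within 100 bp of a TSS, the fairer set, AP-1 was in 1.43% (0.613 to 3.31) and IRF in 1.72% (0.790 to 3.70). PU.1 was in 2.58% (1.36 to 4.83) of that set and the E-box in 3.44% (1.98 to 5.91). Those intervals cover the shares at all TSSs, which for AP-1 was 2.83%. A match says only that the letters occur in the window.

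The members lay upstream of 1103 protein-coding genes of 21755 on chromosomes 1 to 19 and X, a share of 5.07% that serves as the background for the gene groups below. Of these genes, 873 had 1 member interval, 174 had 2 and 56 had 3 or more. Hoxa7 had the most, 6 intervals with 7 summits. The strongest of them, at chr6:52217675-52217899 and 263 bp upstream, had 55 tags, or 48.1 at vehicle depth over 9.0, and a fold of 4.91. It also counted for Hoxa3 and a predicted gene, since HOXA genes, which set position along the body and are active in blood progenitors, lie packed together. Cebpe, the C/EBP family factor of late granulocyte maturation, had 5 intervals with 5 summits from 667 to 2806 bp upstream, with folds from 2.40 to 3.68. Cmtm7 had 5 intervals with 7 summits and folds up to 3.95. Lbp, which carries bacterial lipopolysaccharide to its receptor, had 4 intervals with folds from 1.41 to 4.11, and Tinagl1 had 4 with folds up to 3.82. The share of genes with a member ran from 3.70% to 7.64% over the autosomes, the highest being chromosome 6, and was 1.58% on X.

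Some genes of HDAC complexes had members. The genes of the class I enzymes HDAC1, HDAC2 and HDAC3 had none, which is no contrast for so few genes beside 5.07% over all genes. Of 44 genes for HDAC complexes and acetylation, 6 had a member, or 13.6% (6.40 to 26.7). Tbl1xr1 and Tbl1x, subunits of the NCoR/SMRT complex, had 106 tags over 27.6 (fold 3.73) and 119 over 61.0 (fold 1.93). Mta3 and Chd3 of the NuRD complex had 60.3 over 15.8 and 43.7 over 14. Rcor2 of CoREST and the class IIa deacetylase Hdac7 had 44.6 over 18 and 37.6 over 16.2. Neither the chemokine receptor Ccr2 nor the ubiquitin ligases Nedd4 and Trim32 had a member. The rule removed peaks that overlap the CXD101 or direct list, so a gene without a member can still have a gained promoter peak. For Nedd4 the paper reports peaks near the TSS with both inhibitors. Trim6, also a ubiquitin ligase, had 1 member, at chr7:104217794-104218029, 860 bp upstream of the TSS. It had 73 MS-275 tags (57.2 to 91.8), or 63.8 at vehicle depth, over 13.8, a 4.37-fold enrichment, with a −log10 p-value of 22.0. A CXD101 gained peak lay in the 5 kb upstream of a Trim6 TSS as well, at another place, so the gene was not in the MS-275 list alone. In the TRIM family 5 of 68 genes had a member, the others being Trim27, Trim13, Trim44 and Trim67, with best folds from 1.91 to 4.51. In the Nedd4 family it was 1 of 9, Wwp2, with a fold of 2.60.

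Interferon-stimulated genes held members in 11 of 76 cases, or 14.5% (8.28 to 24.1), and several were neighbors in the guanylate-binding protein clusters. Gbp5, a GTPase of the defense against intracellular microbes, had 76.9 tags at vehicle depth over 19.8 at 3168 bp upstream, and a further interval at its TSS. Gbp8, Gbp9 and Gbp4 shared their strongest peak, with 75.2 over 22, so the 11 genes are not separate events, and Gbp8 had 3 intervals in all. Isg15, a ubiquitin-like interferon product, had 61.2 over 17, and the immunity-related GTPases Ifi47, Irgm2 and Irgm1 had 78.7 over 28.4, 35.8 over 8.80 and 49.8 over 27. Ifi209, Gbp6 and Oas1g completed the group. The median of the best fold per gene was 3.31, beside 2.77 over all 1103 genes. Fold chose the members and shared peaks count more than once. Over the 24 lists this median ran from 1.93 for ribosomal proteins to 3.64 for interleukins, so the value was not particular to interferon genes. Of 62 genes for pattern recognition and the inflammasome, 3 had a member, Gsdme, Nlrc4 and Casp4, and of 52 for antigen presentation and costimulation 1 did, H2-M5.

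Among genes known for MDSC function, 4 of 29 had a member, or 13.8% (5.50 to 30.6). Vegfa, which drives vessel growth, had 108 tags at vehicle depth over 40.2 at 274 bp upstream. Entpd1 (CD39), which breaks down extracellular ATP, had 56.0 over 18.6, S100a9, an alarmin of myeloid cells, 80.4 over 34.0, and Spi1, which encodes PU.1, 52.5 over 27. Chemokines and their receptors had 5 of 60. Cxcr4, the receptor that holds cells in the marrow, had 42.8 over 8.46 at 5007 bp upstream, a fold of 4.63. Cxcl15, Cxcl3, Cxcr2 and Ccl27a had folds of 2.47, 2.49, 2.14 and 1.73. Of 46 genes for integrins and leukocyte adhesion, 4 had a member. Among them, the beta chain Itgb2 of CD11b/CD18 had 80.4 over 28, Itgb3 56.8 over 24 and Cd47 29.7 over 9. Interleukins and their receptors had 2 of 82, Il21r and Il12a, with folds of 3.60 and 3.68.

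Receptors, developmental factors and transporters, many of them best known from other tissues, had members as well. Orphan and adhesion G protein-coupled receptors had 13 of 100, or 13.0% (7.76 to 20.98). Adgrl2, a latrophilin, had 127 tags at vehicle depth over 39.2 at 34 bp from its TSS, and Adgrg1 had 94.4 over 24.6, while Adgrg3 and Gpr146 had 65.6 over 20 and 83.9 over 34. Developmental transcription factors had 16 of 170, 9.41% (5.88 to 14.7). Besides the HOXA genes, which share peaks, Six2 had 64.7 over 17 and Sox12 had 63.0 over 16.6. Axon guidance genes had 6 of 71, led by Plxnd1 (71.7 over 20), with Sema6d, Sema4a and Nrp1 next. Solute carriers had 28 of 385, 7.27% (5.08 to 10.3). The sodium/proton exchanger Slc9a9 had 99.7 over 24, the sodium/chloride cotransporter Slc12a3 86.6 over 20, the taurine transporter Slc6a6 94.4 over 28 and the betaine transporter Slc6a12 118 over 44.6.

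The remaining lists lay near or below the background of 5.07%. C2H2 zinc finger factors had 27 of 465 (5.81%), with Zfp551 (77.8 over 17), Zfp516, Zfp608 and Zfp518a first. Kinesins, dyneins and myosins had 8 of 127, led by Dnaic1, Kif7, Kif6 and Myl10, and synaptic genes 4 of 69 (Stx1a, Rims2, Nrxn3 and Dlg2). Ion channels had 7 of 190 (3.68%), with Kcnip3, Kcnh8, Cacnb2 and Gria3 first. Ribosomal proteins had 3 of 76 (Rpl36, Rpl11 and Rpl27a), keratins 4 of 113 (Krt23, Krt18, Krt83 and Krt7), cadherins 3 of 92 (Cdh5, Pcdh7 and Cdh23) and histone genes 1 of 80 (Hist3h2ba). Olfactory and vomeronasal receptors, which are expressed mainly in sensory neurons, had 6 of 1466 or 0.409% (0.188 to 0.890), led by Olfr272, Olfr742, Olfr694 and Olfr56. Of the 24 lists, the interval lay wholly above 5.07% for interferon genes, MDSC effectors, HDAC complexes, G protein-coupled receptors, developmental factors and, narrowly, solute carriers, and wholly below it for olfactory receptors. The MDSC effectors lost this at q under 0.001, with 3 of 29 or 10.3% (3.58 to 26.4) beside 4.36%, and solute carriers with promoters of 1 kb, with 4.68% (2.98 to 7.27) beside 3.38%. Neighboring genes share peaks, and genes with more TSSs have more upstream sequence, which was not adjusted for, so the intervals describe the counts and test nothing.

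**Figure D5:**
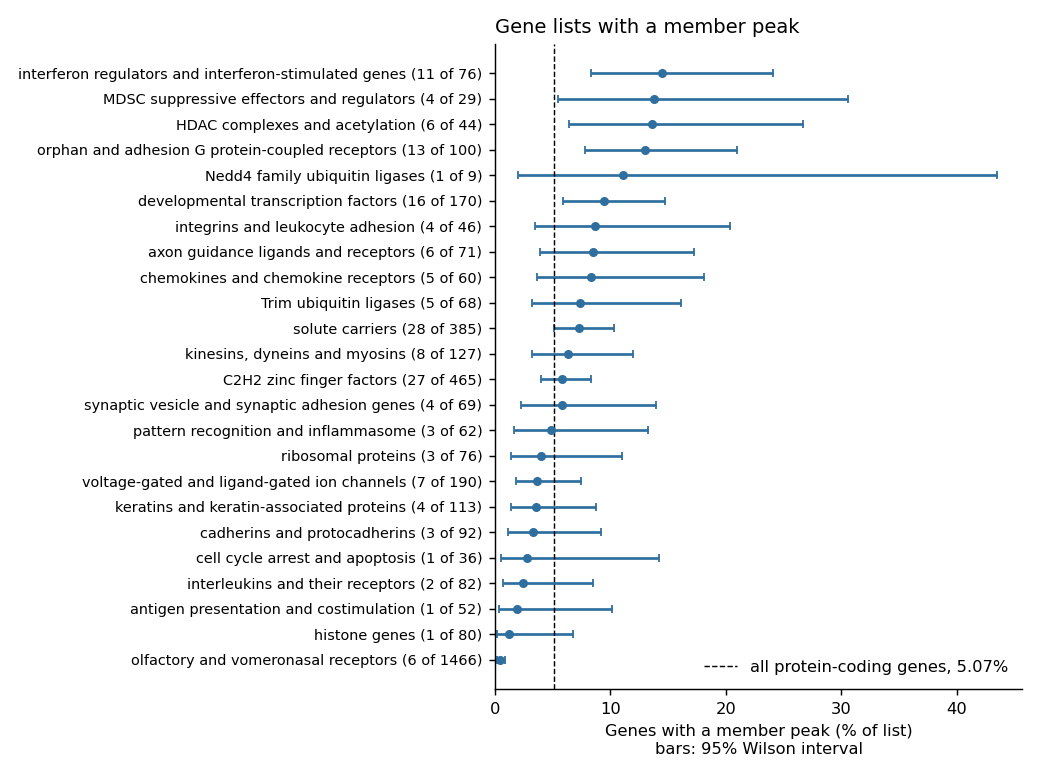
Percent of the genes of each of 24 lists that had a member peak, with 95% Wilson intervals and the count in brackets. The dashed line is the share over all protein-coding genes, 5.07%, and interferon genes are at the top with 14.5%, olfactory and vomeronasal receptors at the bottom with 0.409%.

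Marker genes of the cell types that a tumor sort could hold differed in how many had a member. The shares were 50% (21.5 to 78.5) for neutrophil and 33.3% (9.68 to 70.0) for NK cell markers, with intervals above the background of 5.07%, and 10% (1.79 to 40.4) for M-MDSC and monocyte markers. Of 10 M-MDSC and monocyte markers only Ly6c2, part of the antigen used in the sort, had one, with 51.6 tags at vehicle depth over 14.02 at 4911 bp upstream. Of 8 neutrophil markers 4 had one: Mpo and Elane, which encode the granule enzymes myeloperoxidase and neutrophil elastase, had 56.8 over 18 and 81.3 over 33.0, and S100a9 and Cxcr2 are given with the groups above. The sort was for Ly-6G- cells, and Ly6g, S100a8, Csf3r and Retnlg of the same list had no member. Of 6 NK cell markers Nkg7 and Eomes had one, with folds of 3.63 and 2.32. None of the 10 macrophage, 6 T cell, 5 B cell, 6 hepatocyte and 5 erythroid markers had one. A direct promoter peak was present at 3 of the 10 M-MDSC and monocyte markers, 1 of the 8 neutrophil and 0 of the 6 NK cell markers. Over all protein-coding genes that share was 1.55%. The rule removed gained peaks that overlap the direct list, so the marker shares do not compare all gained promoter peaks between cell types. In pooled cells, more cells of a type and more open chromatin per cell cannot be told apart, and the part of cell makeup in these peaks was not tested.

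Some genes had peaks of several lists at different places upstream. Over all protein-coding genes, 53 (0.244%) had a CXD101 gained peak in the 5 kb upstream. Of the 1103 genes with a member, 24 (2.18%, interval 1.47 to 3.22) had one. Nr3c2, Ndrg2, Trim6, Hlf, Satb1 and Tcf4 were among them, the last 3 named after their values were seen. A direct MS-275 over CXD101 peak was at 103 of the 1103 genes (9.34%, 7.76 to 11.2), and at 337 (1.55%) of all protein-coding genes. At 986 of the 1103 genes neither was present. Dnmt3a, a DNA methyltransferase, was the 1 gene that also had a promoter peak lost with MS-275, and with Npc1, Rarg, Tbc1d2b and Zmynd8 it also had one lost with CXD101. Over all protein-coding genes, 116 (0.533%) had a promoter peak lost with MS-275 and 159 (0.731%) one lost with CXD101. The members share vehicle libraries with the CXD101 gained list and with the lost lists, and MS-275 libraries with the direct list. None of these counts is therefore independent of the choice of members.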

How the data were processed

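Open chromatin was measured by ATAC-seq in 6 libraries, 2 each for vehicle, MS-275 and CXD101, grouped by their treatment labels. The authors aligned reads with Bowtie2 to mm10 and called peaks with MACS2 2.2.7.1 on the pooled libraries of a group against those of another. They deposited 6 lists, each with a score, a linear fold enrichment (ratio), a −log10 p-value, a −log10 q-value and the offset of the summit per peak. The lowest −log10 q-value in the list of MS-275 over vehicle was 1.31 (q of 0.05), whereas a p-value limit is named in the methods, which also give a shift of 0. Reads per library were not used here, and no test between groups was possible.

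The tags and control level of each peak were solved from fold and p-value (pseudocount of 1, scaling factor 0.874 for MS-275 over vehicle). All 1572 members were solved, 4 with a further solution, and the MS-275 tags agreed at all 231 summits listed at the same base in both MS-275 lists. On 1279 simulated peaks 100% were recovered. Overlaps needed 1 base. TSSs came from GENCODE M21, sequence from GRCm38.p6. Python 3.11.15, numpy 2.4.6, pandas 2.3.3, scipy 1.17.1 and matplotlib 3.10.9 were used.

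The members, the gene and marker lists and the motifs were chosen with earlier results of these data known. Genes were named by rule: the 10 members with the highest −log10 p-value, the next 6 by fold, up to 5 genes with the most intervals, up to 4 genes per list by −log10 p-value, the 3 members with the lowest −log10 p-value, and genes the study discusses (Trim6, Trim32, Nedd4, Hdac1, Hdac2, Hdac3 and Ccr2). Further genes of lists that are given in full, and Isg15, Ifi47, Irgm1, Irgm2, Ifi209, Gbp6, Oas1g, and Ran in the sequences, were named after their values were seen. Alternatives covered thresholds, promoter and overlap definitions, windows, the pseudocount and the unit counted. Values of 2 genes of the lists are not reported here.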

Additional observations from a re-analysis of the deposited data

How the results depend on the processing

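No paired analysis was possible because peaks were called after both libraries of a group had been pooled, and for the same reason no replicate could be left out. The number of members stayed within 1.5 times of 1572 under 9 of 10 alternatives (1279 to 1763) and was 1000 with promoters of 1 kb, where genes fell from 1103 to 735 and the share over all genes from 5.07% to 3.38%. The share within 1 kb was 59.7% with TSSs of protein-coding transcripts only, and 55.7% within 500 bp. The median fold was 2.82 at q under 0.001, 2.76 with a pseudocount of 0 and 2.71 with 1 summit per interval. CpG-rich members were 31.4% in the window of 100 bp either side and 22.3% at a ratio of 0.75. Below the limit of the direct list were 0.827%.

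With 50 bp either side, motif shares were 0.891% for AP-1, 0.127% for CRE, 0.318% for PU.1, 13.0% for the GC box, 3.24% for the CCAAT box, 1.34% for the E-box, 0% for C/EBP, 1.40% for IRF, 0.191% for NRF1 and 0% for the REST left part, in a window that is shorter by construction, and the GC box was 22.7% at q under 0.001. With promoters of 1 kb, cadherins had 1.09%, solute carriers 4.68%, chemokines 3.33%, interleukins, antigen presentation, ribosomal proteins and monocyte markers 0%, and olfactory receptors 0.0682%. At q under 0.001, cell cycle arrest and histone genes had 0% and ribosomal proteins 1.32%, beside 4.36% over all genes. The interval of MDSC effectors covered the share over all genes at q under 0.001, and that of solute carriers did so with promoters of 1 kb. The other 53 list values and 17 motif values stayed within the intervals of the reported ones. The depth of the pools limits all lists, since a weaker CXD101 gain would not have been listed.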
